A study of Mus musculus with 6 samples.

Results

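The 10 genes *Cth*, *Cbs*, *Gclc*, *Gclm*, *Gss*, *Gsr*, *Gpx4*, *Txnrd1*, *Hmox1* and *Nqo1* stand for transsulfuration, glutathione synthesis and reduction, and the classical targets of the transcription factor NRF2. They were chosen by symbol from the 54525 genes of the deposited count table, and all 10 were found in it. Each was compared between WT and *Abat* cKO T cells after scaling of the libraries. The question was how the cysteine and glutathione genes differ in activated T cells of mice with *Abat* deleted in T cells. ABAT is the transaminase that breaks down GABA.

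RNA was sequenced from naive CD4+ T cells of mouse lymph nodes and spleen that had been activated for 36 h with IL-2 and plate-bound antibodies to CD3 and CD28 (TH0), with 3 samples per genotype. Nothing further was added to either group, the labels give mice of 6 to 8 weeks on C57BL/6N, and the culture medium of all samples held 2-mercaptoethanol, a thiol that reduces cystine. The *Abat* cKO mice carried a floxed *Abat* allele, made by crossing a tm1a line with a Flippase strain, and *Cd4*-Cre, which deletes at the stage when thymocytes express CD4, so CD8 T cells lose the gene too. The WT mice were C57BL/6 animals not described as littermates, and each genotype was cultured and harvested on its own, so mouse line, culture and genotype cannot be told apart.

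Cysteine can reach a T cell as cystine, imported by xCT (*Slc7a11*) and reduced inside the cell, or as cysteine through carriers of neutral amino acids. It can also be made from methionine by way of homocysteine through CBS and CTH, the transsulfuration route. Glutamate-cysteine ligase (*Gclc* and *Gclm*) and glutathione synthetase (*Gss*) build glutathione from cysteine, glutathione reductase (*Gsr*) recycles its oxidized form with NADPH, and GPX4 spends it on lipid hydroperoxides. NRF2 is held down by KEAP1 and, on oxidative or electrophilic stress, binds antioxidant response elements beside many of these genes, with *Hmox1* and *Nqo1* as common readouts.

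Library totals lay between 19566016 and 24396746 counts, and *Abat* itself had 5, 1 and 0 counts in WT and 7, 3 and 2 in *Abat* cKO, too few to check the labels. WT cells thus held almost no *Abat* RNA either, and the counts in *Abat* cKO were not lower. Across 13605 tested genes, 31.5% passed the threshold of 0.05 on the adjusted p, with 18.1% of all genes rising and 13.4% falling, and 45.9% did not overlap between genotypes (25.4% above and 20.5% below WT). WT replicate 3 and *Abat* cKO replicate 1 stood apart from the other samples of their group on the second principal component (17.7% of the variance). Both had negative scores there (-15.7 and -29.0), and the other samples positive ones. All 11 T cell markers were tested, with a summed level of 4053 to 4149 CPM (counts-per-million units) in WT and 3550 to 3698 CPM in *Abat* cKO, and 7 of them were lower and 0 higher (median log2 fold change -0.21). B cell markers summed to 245 to 269.9 CPM in WT and 101 to 105 CPM in *Abat* cKO, with 7 of 8 tested markers lower. CD8 T cell markers were 7.50 to 24.2 CPM in WT and 5.62 to 6.49 CPM in *Abat* cKO, with 2 of 2 lower. NK cell markers were 6.05 to 24.1 CPM in WT and 7.41 to 8.81 CPM in *Abat* cKO. Of 4 tested NK cell markers, 2 were higher and 1 lower. Myeloid markers, from cells rich in *Hmox1*, summed to 3.11 to 3.92 CPM in WT and 3.02 to 4.54 CPM in *Abat* cKO, with 2 of 12 at 0 in every sample. Erythroid markers stayed at or below 0.0927 CPM, with 3 of 6 at 0 throughout. The part of these other cells in the results that follow was not tested.

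Of the 10 genes, 5 rose in *Abat* cKO cells, 0 fell, 4 did not pass the test, and *Nqo1* was under the filter on low counts. The genes that rose were *Cth*, *Cbs*, *Gpx4*, *Txnrd1* and *Hmox1*, and the same 5 did not overlap between genotypes. Both counts are 5 of the 9 tested members. Among all tested genes, 31.5% passed, 18.1% rose and 45.9% did not overlap, so the lack of overlap is common in these data. The 3 genes of glutathione synthesis and *Gsr* did not pass. As a description, the median log2 fold change of the 9 tested members was 0.32, against 0.0046 for all tested genes. Because the samples are bulk RNA, fewer cells of a type and less RNA per cell cannot be told apart. The p-values set the difference between genotypes against the spread within these groups of 3 samples, which the study calls independent biological samples. They do not cover differences of mouse line or culture.

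**Figure D1:**
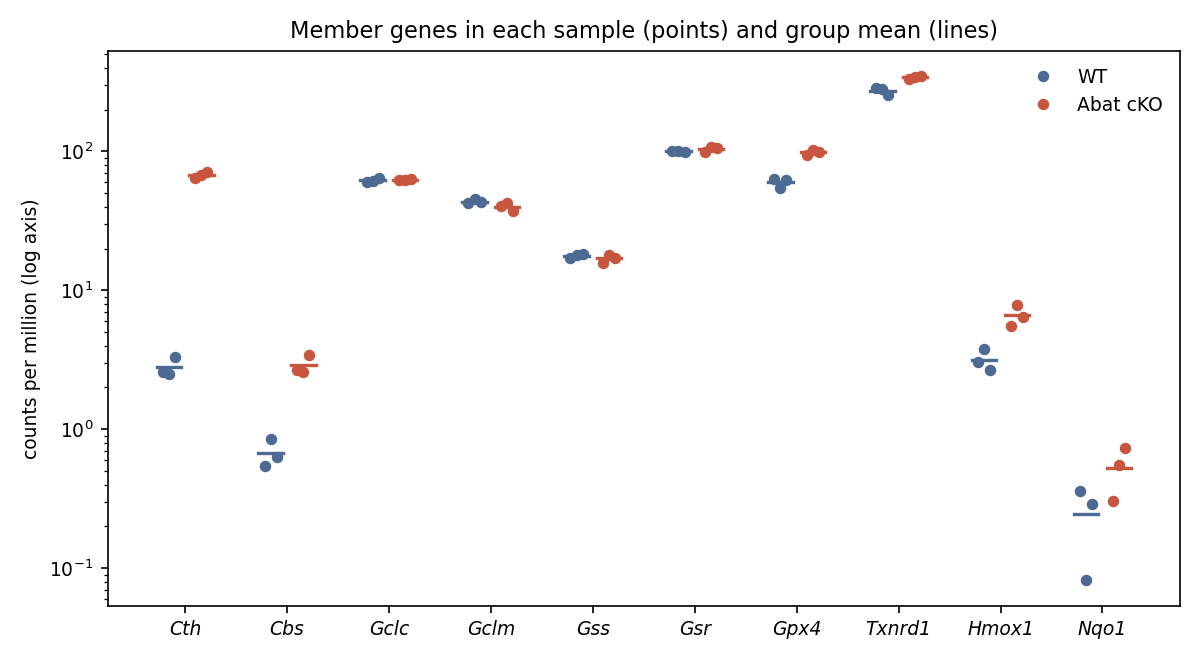
Level of each of the 10 genes in CPM (log axis) in 3 WT and 3 *Abat* cKO samples, with a point per sample and a line at the group mean. *Cth* moved from a mean of 2.80 to 67.5 CPM, while *Gclc*, *Gclm*, *Gss* and *Gsr* overlapped between genotypes and *Nqo1* lay below 1 CPM in every sample.

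Divided by transcript length and expressed in transcripts-per-million units (TPM), *Txnrd1* was the most abundant of the 10 in WT at 183 ± 10.1 TPM (SD, n = 3), followed by *Gpx4* at 146 ± 11.3 TPM and *Gsr* at 90.8 ± 0.508 TPM. *Gclc* at 43.9 ± 1.85 TPM, *Gclm* at 18.9 ± 0.703 TPM and *Gss* at 13.2 ± 0.535 TPM came next. *Hmox1* at 4.90 ± 0.858 TPM and *Cth* at 3.74 ± 0.669 TPM were closer than the sum of their SDs, as were *Cbs* at 0.656 ± 0.157 TPM and *Nqo1* at 0.381 ± 0.226 TPM. In *Abat* cKO, *Gpx4* stood first at 234 ± 7.06 TPM (SD, n = 3) and *Txnrd1* second at 222 ± 1.87 TPM. *Cth* moved up to 87.5 ± 2.34 TPM, next to *Gsr* at 92.03 ± 3.45 TPM and within the sum of their SDs. The levels of *Gclc*, *Gclm* and *Gss* were 43.1 ± 0.816, 16.9 ± 1.25 and 12.3 ± 0.703 TPM. *Hmox1* was 9.89 ± 1.66 TPM, *Cbs* 2.73 ± 0.387 TPM and *Nqo1* 0.798 ± 0.310 TPM. This order rests on the length given in the table, since WT *Gpx4* over *Txnrd1* was 0.800 per length and 0.220 without division by length.

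Of the 10 members, *Cth* and *Cbs* had the largest fold changes. *Cth*, which encodes cystathionine gamma-lyase, the enzyme that releases cysteine from cystathionine, lies on the minus strand of chromosome 3 (GRCm38, chr3:157894248-157925077) in 13 exon blocks. It gave 57, 61 and 69 counts in WT and 1278, 1455 and 1358 counts in *Abat* cKO, or 2.57, 2.49 and 3.34 CPM against 64.4, 67.5 and 70.6 CPM. Every *Abat* cKO sample was far above every WT sample, and the coefficient of variation was 16.7% in WT and 4.59% in *Abat* cKO. The fold change was 24.2 (95% interval 21.03 to 27.9; log2 fold change 4.60, standard error 0.09, adjusted p = 8.7e-10, edgeR's quasi-likelihood test).

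*Cbs*, which encodes cystathionine beta-synthase, the enzyme before CTH, lies on the minus strand at chr17:31608894-31637238. It had 12, 21 and 13 counts in WT and 53, 56 and 66 counts in *Abat* cKO, or 0.542, 0.857 and 0.629 CPM against 2.67, 2.60 and 3.43 CPM. The groups did not overlap, although *Cbs* remained a low transcript in both. It rose 4.23-fold (95% interval 2.81 to 6.36; log2 fold change 2.08, standard error 0.26, adjusted p = 0.00022, edgeR's quasi-likelihood test). *Cth* exceeded *Cbs* per length by 6.53, 3.996 and 7.30 times in the WT samples and by 33.2, 35.7 and 28.3 times in the *Abat* cKO samples.

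Of 15 genes of the methionine cycle and transsulfuration, 11 were tested: 3 rose, 3 fell and 5 did not pass, with a median log2 fold change of 0.08. For this list and those below, the shares over all tested genes are 18.1% that rose and 13.4% that fell. Beside *Cbs* and *Cth*, the riser was *Mtr* (methionine synthase, which turns homocysteine back into methionine) with a log2 fold change of 0.23 and an adjusted p of 0.011 in edgeR's quasi-likelihood test. *Mtap*, which salvages methionine from methylthioadenosine, fell from 182, 178 and 161 CPM to 126, 133 and 133 CPM, a log2 fold change of -0.41 (adjusted p = 0.00025, edgeR). *Ahcyl1*, a relative of the homocysteine-forming hydrolase, and *Mat2a*, which makes S-adenosylmethionine, had log2 fold changes of -0.24 and -0.16. Only *Cth* and *Cbs* of these 11 changed more than 2-fold. When libraries were scaled to the spike-in counts, 3 of the list passed, and *Mtr*, *Ahcyl1* and *Mat2a* did not (adjusted p of 0.31, 0.073 and 0.23); *Mat2a* also lost its call on leaving out WT replicate 1 (0.058) or WT replicate 2 (0.067).

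Downstream, among 9 tested genes of cysteine and sulfide breakdown, 2 rose, 2 fell and 5 did not pass (median log2 fold change 0.05). *Ethe1*, the mitochondrial persulfide dioxygenase, rose from 5.42, 4.65 and 4.79 CPM to 7.51, 7.97 and 8.58 CPM, a log2 fold change of 0.70. *Suox*, the sulfite oxidase, fell from 21.1, 19.9 and 18.8 CPM to 10.9, 11.7 and 16.3 CPM, a log2 fold change of -0.63. *Got1*, an aspartate aminotransferase that also accepts cysteine sulfinate, rose by a log2 fold change of 0.31, and *Ado*, a thiol dioxygenase, had -0.19. Scaled to the spike-in counts, 2 of the list passed and *Got1* (adjusted p = 0.13) and *Ado* (0.15) did not; *Ado* also lost its call without WT replicate 1, WT replicate 2 or any 1 *Abat* cKO replicate (0.065 to 0.17).

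The 3 genes that build glutathione did not pass. *Gclc* (chr9:77754535-77794485, plus strand), which encodes the catalytic subunit of glutamate-cysteine ligase and sets the rate of the pathway, was at 60.5, 61.3 and 64.1 CPM in WT and 62.8, 62.1 and 62.9 CPM in *Abat* cKO. The *Abat* cKO values lay inside the WT range. Its fold change was 1.01 with a 95% interval of 0.944 to 1.08 (adjusted p = 0.84, edgeR's quasi-likelihood test). On this scaling the interval ends at 1.08-fold, and the sign of the log2 value (0.01) turned to -0.02 with library size alone and to -0.03 with spike-in scaling.

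*Gclm* (chr3:122245557-122270732, plus strand), the modifier subunit of the ligase, was at 42.3, 45.3 and 42.9 CPM in WT and 40.2, 42.3 and 37.4 CPM in *Abat* cKO. The groups touched at 42.3 CPM. Its fold change was 0.920 (95% interval 0.841 to 1.01; adjusted p = 0.15, edgeR's quasi-likelihood test). The ratio of *Gclm* to *Gclc* per length was 0.430 ± 0.0214 (SD, n = 3) in WT and 0.392 ± 0.0263 in *Abat* cKO. *Gss* (chr2:155563181-155592810, minus strand) was at 17.1, 17.9 and 18.2 CPM in WT and 15.8, 18.0 and 17.1 CPM in *Abat* cKO, again with overlap. Its fold change was 0.956 (95% interval 0.858 to 1.07; adjusted p = 0.53, edgeR's quasi-likelihood test). Exons of *Gclm* overlap *Gm17494* on the opposite strand over 4.71% of their bases. Exons of *Gss* overlap *Acss2* (6.68%), *Gssos1* (5.44%) and *Gssos2* (6.51%), also on the opposite strand. Reads there cannot be assigned without strand, whose use in the counting is not given in the sources used here. *Gclm* exons also overlap *Gm6061* on the same strand over 3.88%, where strand would not separate the reads.

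The other 4 genes of the list for cystine import and glutathione synthesis all rose, and they are transporters. *Slc7a11*, which encodes the light chain xCT of the cystine-glutamate exchanger, was at 1.35, 1.59 and 1.404 CPM in WT (30, 39 and 29 counts) and at 24.5, 22.1 and 19.7 CPM in *Abat* cKO (485, 476 and 378 counts). The groups were far apart, with a 15.1-fold difference (95% interval 12.4 to 18.4; log2 fold change 3.92, standard error 0.13, adjusted p = 1.9e-08, edgeR's quasi-likelihood test). *Slc3a2*, the heavy chain CD98 that xCT shares with other amino acid exchangers, rose from 180, 181 and 182 CPM to 308, 321 and 326 CPM, a log2 fold change of 0.81. *Slc1a4*, a carrier of neutral amino acids including cysteine, rose from 14.4, 17.9 and 16.2 CPM to 50.01, 48.5 and 46.5 CPM, a log2 fold change of 1.58. *Slc1a5*, a glutamine carrier, rose by a log2 fold change of 0.20, a call lost with spike-in scaling (adjusted p = 0.44). The median of these 4 was 1.20 and that of all 7 genes of the list was 0.20.

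**Figure D2:**
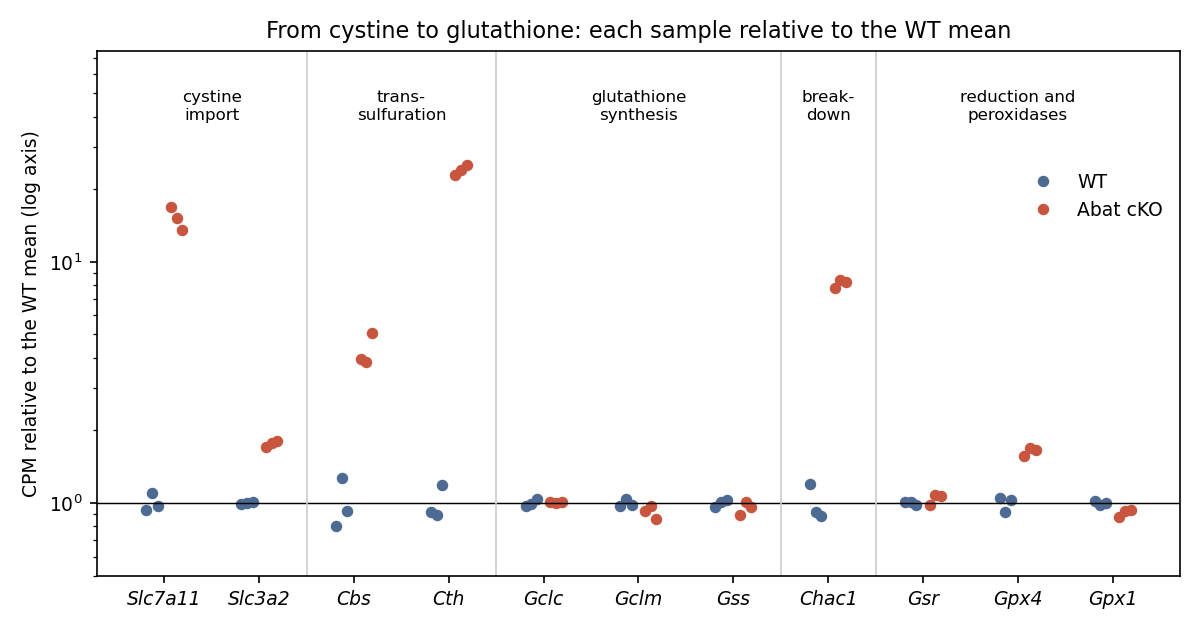
Level of each gene in each sample relative to the WT mean (log axis), ordered from cystine import through transsulfuration, glutathione synthesis and breakdown to reduction and peroxidases, with a point per sample (3 WT, 3 *Abat* cKO). *Slc7a11*, *Cth*, *Chac1*, *Cbs*, *Slc3a2* and *Gpx4* stood above WT in every *Abat* cKO sample. *Gpx1* lay slightly below WT in each, and *Gclc*, *Gclm* and *Gss* stayed near 1.

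Glutathione breakdown had 8 tested genes of 14, of which 3 rose, 2 fell and 3 did not pass (median log2 fold change 0.36). *Chac1*, which encodes a cyclotransferase that cleaves glutathione inside the cell, rose from 3.34, 2.57 and 2.47 CPM to 21.7, 23.5 and 23.1 CPM. It was 8.14-fold higher (95% interval 6.87 to 9.64; log2 fold change 3.03, standard error 0.11, adjusted p = 4.3e-08, edgeR's quasi-likelihood test). *Ggt7*, of the gamma-glutamyltransferase family, rose from 5.51, 5.06 and 4.89 CPM to 8.02, 9.55 and 8.69 CPM. *Chac2*, the constitutive relative of *Chac1*, had a log2 fold change of 0.37 (adjusted p = 0.048, edgeR), a call that no alternative kept (adjusted p of 0.053 to 0.24). *Lap3*, a leucine aminopeptidase, and *Ggct*, which acts on gamma-glutamyl amino acids, had log2 fold changes of -0.29 and -0.32. Calls in this list numbered 2 when either WT replicate 1 or WT replicate 2 was left out, and 3 when *Abat* cKO replicate 1 or *Abat* cKO replicate 2 was left out, with DESeq2 or with a replicate block.

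Sequence around the starts of these genes was read from RefSeq promoters of GRCm38.p6 (250 bases before to 50 after each start), which hold entries for 6 of the 10 members, with 11 promoters; *Cth*, *Gclc*, *Gsr* and *Hmox1* have no entry and were not searched. They were searched on both strands for TGACNNNGC, the core of the antioxidant response element that NRF2 binds, and for TGATGNAA, the core of the C/EBP-ATF response element that ATF4 binds. The first occurred in 12.4% of all 32851 promoters and in 2 of the 11, those of *Gclm* and of 1 of 3 *Txnrd1* starts. The second occurred in 3.97% of all promoters and in 0 of the 11, but in the promoters of *Chac1* and *Slc7a11*, the only genes outside the members searched by name. All other member promoters searched held neither core. The matches found are shown, each 5′ to 3′ on the strand of its gene with the matched core, or its reverse complement, in capitals.
*Gclm* (chr3:122245403-122245451, plus strand, match at -134): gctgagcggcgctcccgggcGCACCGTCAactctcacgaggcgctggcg
*Txnrd1* (chr10:82859094-82859142, plus strand, match at -92): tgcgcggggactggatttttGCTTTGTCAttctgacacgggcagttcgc
*Chac1* (chr2:119351029-119351076, plus strand, match at -193): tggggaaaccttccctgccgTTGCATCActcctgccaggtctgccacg
*Slc7a11* (chr3:50443633-50443699, minus strand, matches at -66 and -47): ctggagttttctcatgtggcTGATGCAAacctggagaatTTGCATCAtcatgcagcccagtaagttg
In *Slc7a11* the core stands in both orientations with a short gap. Of the genes shown with the NRF2 core, *Txnrd1* rose and *Gclm* did not pass. These matches are letters in a window and say nothing of binding.

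Glutathione reduction itself did not pass. *Gsr* (chr8:33652523-33698163, plus strand), glutathione reductase, was at 101, 101 and 98.5 CPM in WT and 98.7, 108 and 107 CPM in *Abat* cKO. The groups overlapped through *Abat* cKO replicate 1. The fold change was 1.04 (95% interval 0.971 to 1.12; adjusted p = 0.36, edgeR's quasi-likelihood test).

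*Gpx4* (chr10:80047166-80056439, plus strand), the selenoprotein that reduces phospholipid hydroperoxides and guards against ferroptosis, was at 63.4, 55.0 and 62.1 CPM in WT and 94.6, 102 and 99.8 CPM in *Abat* cKO. All *Abat* cKO samples lay above all WT samples. It rose 1.64-fold (95% interval 1.499 to 1.801; log2 fold change 0.72, standard error 0.06, adjusted p = 1.1e-05, edgeR's quasi-likelihood test). Counts of its pseudogene copy *Gpx4-ps2* were 45, 50 and 45 in WT and 65, 82 and 73 in *Abat* cKO, with a log2 fold change of 0.80, and how reads were split between the copies is not given in the sources used here. The ratio of *Gpx4* to *Gsr* per length was 1.61 ± 0.133 (SD, n = 3) in WT and 2.54 ± 0.0318 in *Abat* cKO.

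The other abundant peroxidase did not follow. *Gpx1*, which removes hydrogen peroxide with glutathione, was at 148, 142 and 145 CPM in WT and 127, 134 and 136 CPM in *Abat* cKO (log2 fold change -0.13, adjusted p = 0.043, edgeR). That call was lost when any 1 sample was left out and with 4 further alternatives (adjusted p up to 0.33). *Gpx1* per length was 2.24 ± 0.131 (SD, n = 3) times *Gpx4* in WT and 1.24 ± 0.0227 times in *Abat* cKO. 

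Among 11 tested genes of glutathione reduction, peroxidases and glutaredoxins, *Gpx4* was the single riser, 5 fell and 5 did not pass (median log2 fold change -0.06). *Glrx*, the cytosolic glutaredoxin, fell from 11.6, 13.8 and 11.2 CPM to 6.76, 7.28 and 8.11 CPM, a log2 fold change of -0.73. The mitochondrial *Glrx2*, the iron-handling *Glrx3* and *Esd*, which hydrolyses S-formylglutathione, had log2 fold changes of -0.22, -0.12 and -0.16, and each of these calls was lost with spike-in scaling. The list held 2 calls with spike-in scaling, 3 with DESeq2, 3 without WT replicate 1, 3 without WT replicate 2 and 2 without *Abat* cKO replicate 2. Without *Abat* cKO replicate 3 the genes that fell numbered 3 in place of 5.

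Of 12 tested glutathione S-transferase genes, which attach glutathione to reactive compounds, 3 rose, 0 fell and 9 did not pass (median log2 fold change 0.14). *Gstm1* went from 2.26, 2.53 and 1.94 CPM to 9.33, 9.88 and 11.6 CPM, a log2 fold change of 2.19 (adjusted p = 2.5e-06, edgeR). It belongs to a family of near-identical genes, so its level is uncertain where reads could be split. *Gsto1* and *Gstp3* rose by log2 fold changes of 0.37 and 0.38.

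*Txnrd1* (chr10:82833951-82897712, plus strand), the cytosolic thioredoxin reductase and a second selenoprotein among the members, was at 288, 280.4 and 253 CPM in WT and 332, 343 and 349 CPM in *Abat* cKO. The groups did not overlap. It rose 1.25-fold (95% interval 1.15 to 1.35; log2 fold change 0.32, standard error 0.05, adjusted p = 0.0011, edgeR's quasi-likelihood test). With spike-in scaling the log2 fold change was 0.27 and no longer passed (adjusted p = 0.12).

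*Gpx4* and *Txnrd1* are the 2 members with an annotated selenocysteine codon, a TGA read as selenocysteine in place of a stop. They are printed with the codon in capitals because the active sites of both enzymes depend on it.
*Gpx4* (codon at chr10:80054737-80054739): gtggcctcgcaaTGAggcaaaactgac
*Txnrd1* (codon at chr10:82896037-82896039): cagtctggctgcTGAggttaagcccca
The *Txnrd1* codon is followed by 1 further codon before the ordinary stop, at the end of the protein, and that of *Gpx4* lies within the reading frame. Of 18 tested selenoprotein genes, 6 rose, 5 fell and 7 did not pass (median log2 fold change 0.09). Among all tested genes, 18.1% rose and 13.4% fell. *Selenow*, a small selenoprotein with a thioredoxin-like fold, rose from 47.3, 39.2 and 42.7 CPM to 63.9, 66.7 and 74.3 CPM, a log2 fold change of 0.67. *Selenop*, the secreted selenium carrier, had a log2 fold change of -0.47, and *Selenoh*, *Selenoo* and the testis-type reductase *Txnrd3* had 0.34, -0.20 and -0.28. The list held 5 calls with spike-in scaling, under which *Selenoh* (adjusted p = 0.057) and *Selenoo* (0.14) did not pass, and 7 without *Abat* cKO replicate 3. *Selenoo* was also lost without any 1 sample, and each of these omissions left 2 lower selenoprotein genes in place of 5.

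Genes that make and insert selenocysteine moved both ways. Of 10 tested genes, 2 rose, 2 fell and 6 did not pass (median log2 fold change 0.09). *Sars*, the seryl-tRNA synthetase that loads serine onto the selenocysteine tRNA as well as onto serine tRNAs, rose by a log2 fold change of 0.75. *Secisbp2l*, a relative of the SECIS-binding protein, had a log2 fold change of -0.29. *Sephs1* (0.13), a selenophosphate synthetase relative, and *Secisbp2* (-0.13), which binds the SECIS element of selenoprotein mRNAs, passed narrowly, and the list held 2 calls without WT replicate 1, 2 or 3, without *Abat* cKO replicate 2 or 3, and with spike-in scaling, DESeq2, no filter or a replicate block.

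Partners of *Txnrd1* moved both ways. Of 16 tested genes of thioredoxins, peroxiredoxins and methionine sulfoxide reductases, 4 rose, 3 fell and 9 did not pass (median log2 fold change -0.01). *Txn1*, the cytosolic substrate of TXNRD1, rose from 287, 283 and 288 CPM to 337, 348 and 360 CPM, a log2 fold change of 0.28. *Prdx4*, the peroxiredoxin of the endoplasmic reticulum, rose by a log2 fold change of 0.43 and *Srxn1*, sulfiredoxin, by 0.54 (adjusted p = 0.046, edgeR). *Prdx6* and the mitochondrial *Txn2* had log2 fold changes of -0.26 and -0.24. With spike-in scaling 2 of the list passed, and *Txn1*, *Srxn1*, *Prdx6* and *Txn2* did not (adjusted p of 0.17, 0.053, 0.056 and 0.079). *Srxn1* was also lost without WT replicate 2 or 3 or any 1 *Abat* cKO replicate (0.051 to 0.14). Of the 4 tested superoxide dismutase and catalase genes, *Ccs* (0.20), the copper chaperone of SOD1, rose, and *Cat* (catalase) had a log2 fold change of -0.25, while 2 did not pass (median log2 fold change 0.04). *Ccs* kept its call only without *Abat* cKO replicate 1 among the alternatives, and with spike-in scaling 0 of these 4 passed (*Cat* at an adjusted p of 0.052).

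*Hmox1* (chr8:75093621-75100589, plus strand), haem oxygenase 1, which opens haem to biliverdin, iron and carbon monoxide, had 68, 93 and 55 counts in WT and 110, 168 and 124 counts in *Abat* cKO. These were 3.07, 3.796 and 2.66 CPM against 5.55, 7.79 and 6.45 CPM, without overlap. It rose 2.07-fold (95% interval 1.57 to 2.73; log2 fold change 1.05, standard error 0.18, adjusted p = 0.0014, edgeR's quasi-likelihood test). Summed myeloid markers overlapped between genotypes (3.11 to 3.92 CPM in WT and 3.02 to 4.54 CPM in *Abat* cKO). Only 1 of the 12 was above the filter on low counts, and the part of myeloid cells in the level of *Hmox1* was not tested. Its constitutive relative *Hmox2* went the other way, from 73.7, 71.3 and 72.3 CPM to 47.6, 53.7 and 54.6 CPM, a log2 fold change of -0.48 (adjusted p = 0.00013, edgeR).

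*Nqo1* (chr8:107388225-107403206, minus strand), a quinone reductase and a common readout of NRF2 activity, had 8, 2 and 6 counts in WT and 6, 12 and 14 counts in *Abat* cKO. These were 0.361, 0.0816 and 0.290 CPM in WT and 0.3025, 0.556 and 0.728 CPM in *Abat* cKO, with overlap through *Abat* cKO replicate 1. It was under edgeR's filter on low counts, and an exact permutation test of CPM, two-sided, gave p = 0.2, where 3 against 3 samples cannot go below 0.1. The permutation test could therefore not pass the threshold used for the other genes, however large the difference. It cannot decide whether *Nqo1* differed between genotypes. The log2 ratio of the mean CPM was 1.11. Without the filter, edgeR's quasi-likelihood test gave 1.12 (adjusted p = 0.15). *Nqo1* entered 7 settings and passed in 1 of them, the omission of both WT replicate 3 and *Abat* cKO replicate 1. That setting was added after the data were seen and drops the lowest *Abat* cKO value of *Nqo1*. There edgeR gave 1.54 (adjusted p = 0.034), and the 5 other members that rose kept their calls. DESeq2 gave an adjusted p of 0.36. Omission of 1 sample gave 0.066 to 0.39 in edgeR where *Nqo1* was tested.

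**Figure D3:**
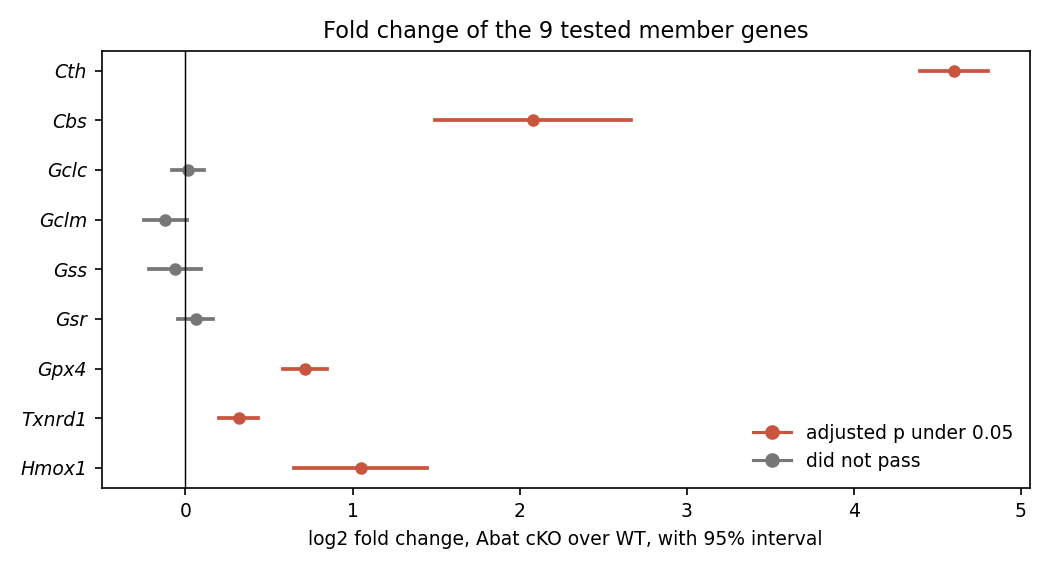
Log2 fold change of *Abat* cKO over WT (points) with its 95% interval (bars) for the 9 tested members, from edgeR's quasi-likelihood test on 3 and 3 samples. *Cth* stood at 4.60 and *Cbs* at 2.08, and the intervals of *Gclc*, *Gclm*, *Gss* and *Gsr* crossed 0.

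The members shared by the NRF2 program split, with *Txnrd1* and *Hmox1* higher, *Gclc*, *Gclm* and *Gsr* not passing and *Nqo1* under the main filter. Among the other 27 tested genes of the NRF2 target list, 12 rose, 2 fell and 13 did not pass (median log2 fold change 0.16). For all 32 tested targets the risers were 43.8%, beside 18.1% of all genes. The list was chosen with earlier results of these data known, so the difference in share is a description and no test. Without *Abat* cKO replicate 3, the risers were 8 of the 32 and 3 targets fell. In that setting 1920 of 14019 tested genes rose and 1533 fell. *G6pdx*, the first enzyme of the pentose phosphate pathway, rose from 87.5, 88.2 and 83.7 CPM to 106, 110 and 113 CPM (log2 fold change 0.34), and *Abcc1*, an exporter of glutathione conjugates, rose by 0.36 on the same scale. *Ugdh*, which makes UDP-glucuronate, fell from 65.5, 63.2 and 66.2 CPM to 44.01, 42.6 and 40.5 CPM, a log2 fold change of -0.62. *Ephx1*, the microsomal epoxide hydrolase, had a log2 fold change of -0.70. With spike-in scaling 7 targets passed, 5 of them higher and 2 lower, and *G6pdx* (adjusted p = 0.058) did not. Under that scaling 1339 of 13605 tested genes rose and 1185 fell.

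Regulators of NRF2 moved in both directions, with 5 of 15 higher, 4 lower and 6 not passing (median log2 fold change 0.05). Among all tested genes, 18.1% rose and 13.4% fell. *Nfe2l2*, the NRF2 gene, was at 37.1, 35.0 and 28.7 CPM in WT and 40.4, 40.3 and 43.5 CPM in *Abat* cKO. The groups did not overlap, with WT replicate 3 the lowest. It rose by a log2 fold change of 0.30 (adjusted p = 0.023, edgeR's quasi-likelihood test), a call lost with spike-in scaling (0.13) and without *Abat* cKO replicate 2 or 3. *Keap1*, the adaptor that marks NRF2 for degradation, was at 76.0, 75.5 and 72.0 CPM in WT and 74.6, 80.7 and 80.1 CPM in *Abat* cKO, with overlap. Its log2 fold change was 0.07 (95% interval -0.03 to 0.18) and did not pass (adjusted p = 0.27, edgeR).

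*Bach1*, a repressor that competes with NRF2 at *Hmox1* and is released by haem, fell from 25.9, 25.9 and 26.9 CPM to 19.4, 17.1 and 15.7 CPM. The groups were apart, and the log2 fold change was -0.59 (standard error 0.08, adjusted p = 0.00027, edgeR's quasi-likelihood test). Its relative *Bach2*, which restrains effector differentiation in T cells, fell from 538, 528 and 598 CPM to 435, 368 and 357 CPM, a log2 fold change of -0.52. *Nfe2l1*, the NRF1 factor of the same family, rose from 136, 130 and 123 CPM to 189, 200 and 194 CPM (log2 fold change 0.59), and *Mafg*, a small MAF partner, rose by 0.35. *Sqstm1*, the p62 receptor that binds KEAP1, rose by a log2 fold change of 0.19, and *Cul3* (-0.23), the ligase scaffold that works with KEAP1, and *Dpp3* (-0.17), a peptidase that also binds KEAP1, fell. With spike-in scaling 4 of the list passed, and *Sqstm1*, *Cul3* and *Dpp3* did not. Without *Abat* cKO replicate 3, 3 regulators rose and 4 fell.

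Iron and haem genes beside *Hmox1* included 6 of 20 tested that rose, 3 that fell and 11 that did not pass (median log2 fold change 0.10). *Tfrc*, the transferrin receptor, rose by a log2 fold change of 0.49, from 1116 ± 19.6 CPM (SD, n = 3) to 1565 ± 13.6 CPM. *Fth1*, ferritin heavy chain, rose from 208, 209 and 203 CPM to 239, 245 and 250 CPM (0.25), and *Aco1*, the iron regulatory protein with aconitase activity, by 0.20. *Alad* and *Ppox*, enzymes of haem synthesis, had log2 fold changes of -0.29 and -0.30. With spike-in scaling 5 of the list passed, and *Fth1* (adjusted p = 0.28) and *Aco1* (0.41) did not. *Ppox* was lost without WT replicate 1 or 3 and without *Abat* cKO replicate 3.

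NADPH, which GSR and TXNRD1 consume, was represented by 16 tested genes, of which 6 rose, 2 fell and 8 did not pass (median log2 fold change 0.03). *Aldh1l2*, a mitochondrial folate enzyme that yields NADPH, went from 0.451, 0.980 and 0.774 CPM to 35.3, 34.3 and 31.0 CPM, a log2 fold change of 5.49. *Mthfd2*, the mitochondrial folate dehydrogenase, rose by 0.93 and *Pgls*, of the pentose phosphate pathway, by 0.29 on the log2 scale. *Nadk* (-0.12), NAD kinase, and *Mthfd2l* (-0.47), a relative of *Mthfd2*, passed narrowly. The list held 3 calls with spike-in scaling and 5 with DESeq2, with a replicate block, without WT replicate 1, without WT replicate 2 and without *Abat* cKO replicate 3.

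Ferroptosis genes outside the glutathione system had 5 of 8 tested higher, 1 lower and 2 not passing (median log2 fold change 0.25), with 2 calls under spike-in scaling. *Lpcat3* and *Acsl4*, which load polyunsaturated fatty acids into phospholipids, the substrates that GPX4 protects, rose by log2 fold changes of 0.52 and 0.22. *Slc39a14*, a zinc and iron importer, rose by 0.27, and *Dhodh*, a mitochondrial pyrimidine enzyme, had -0.21. With spike-in scaling *Acsl4* (adjusted p = 0.37), *Slc39a14* (0.18) and *Dhodh* (0.10) did not pass. Over all 15 lists, 157 of 202 genes other than the members were tested, of which 46 rose, 33 fell and 78 did not pass, with a median log2 fold change of 0.07 beside 0.0046 for all tested genes. Of all tested genes, 18.1% rose and 13.4% fell. The lists were chosen with earlier results of these data known.

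**Figure D4:**
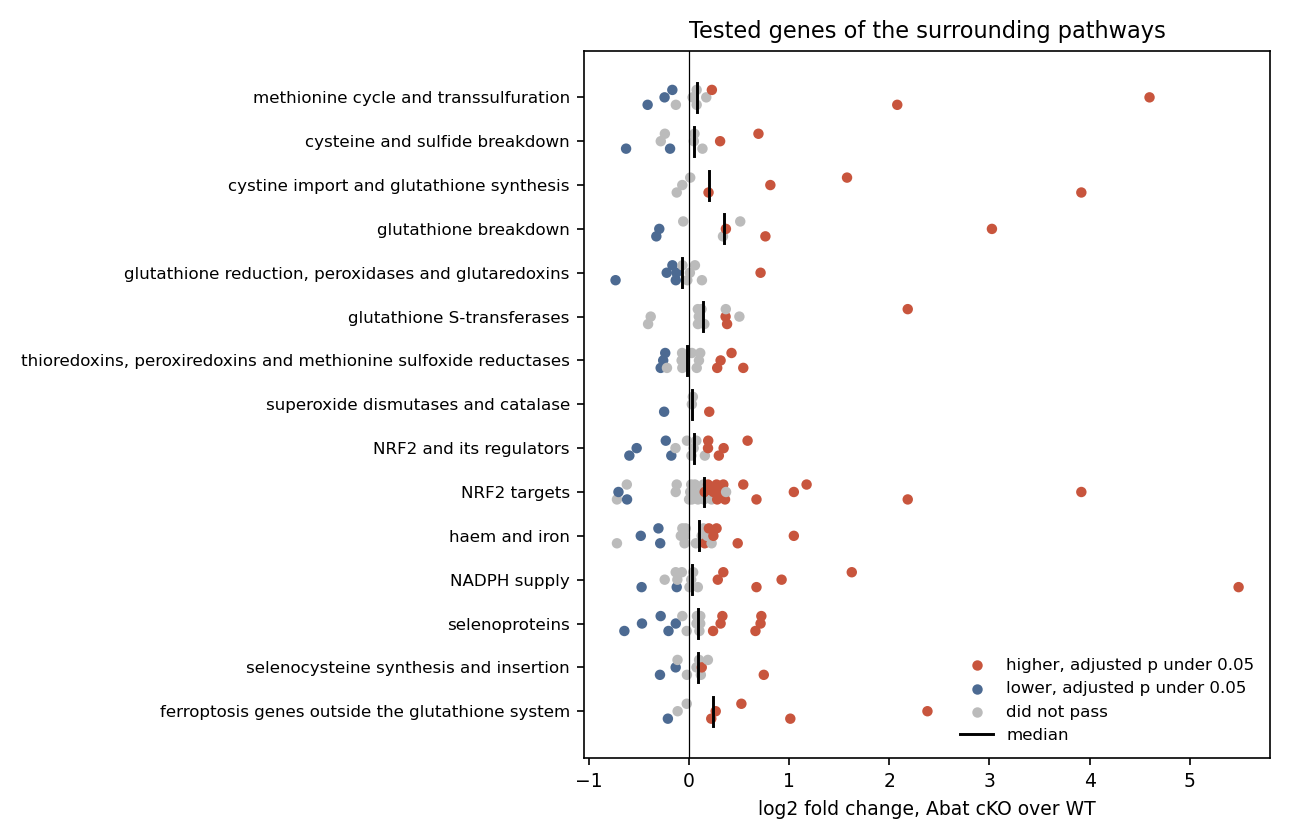
Log2 fold change of *Abat* cKO over WT for every tested gene of the 15 pathway lists, with a point per gene, a black bar at each list's median and colour for genes past an adjusted p of 0.05 in either direction. Most medians lay near 0, while *Cth*, *Slc7a11*, *Chac1* and *Aldh1l2* stood far to the right of the other genes.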

How the data were processed

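RNA of 3 WT and 3 *Abat* cKO samples was sequenced as paired-end reads after depletion of ribosomal RNA. The authors deposited raw counts per gene on GRCm38. The supplementary methods name TopHat2 and HTSeq, and the submitters' processing notes name Trim Galore 0.60, STAR 2.7 and RSEM 1.31, so the counting tool stays unknown. The deposited normalized counts, a signal of raw counts over a size factor per sample, and the authors' log2 fold changes and adjusted p-values were not used. The 92 spike-in controls (0.817% to 1.00% of counts) were left out except in 1 alternative.

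Counts were tested with edgeR 4.0.16 in R 4.3.3 (TMM scaling, filterByExpr as the filter on low counts, quasi-likelihood test for genotype, Benjamini-Hochberg adjustment over 13605 genes, threshold 0.05). CPM was computed on TMM-scaled totals and TPM from the length column. On simulated counts for this comparison over 13605 genes, 39 of 50 genes changed 1.5-fold and 49 of 50 changed 2-fold were recovered, with 4 false calls. The simulation gave every gene the same dispersion, changed few genes and held no outlying samples, so these rates need not hold for the real samples. No pair of samples agreed within sampling noise.

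The members and lists were chosen with earlier results of these data known. Named genes were the 10 members, *Slc7a11*, *Chac1*, *Nfe2l2*, *Keap1* and *Bach1*, and, per list and direction, up to 4 genes that passed with a mean log2 CPM no lower than 2, by smallest adjusted p. For *Cth* the 3 genes, and for each other changed member the 1 gene, most alike over the samples were named. The alternatives were library size, DESeq2's size factors, spike-in scaling, DESeq2 1.42.0, other filters, a replicate block, omission of each sample and, added after the data were seen, leaving out WT replicate 3 with *Abat* cKO replicate 1. Positions came from GENCODE M21 and promoters from RefSeq.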

Additional observations from a re-analysis of the deposited data

How the results depend on the processing

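*Cth*, *Cbs*, *Gpx4* and *Hmox1* were higher in all 14 alternatives run, with log2 fold changes of 4.52 to 4.76, 1.93 to 2.30, 0.65 to 0.77 and 0.91 to 1.20. *Txnrd1* did not pass with spike-in scaling (0.27, adjusted p = 0.12; 0.26 to 0.35 over all alternatives). *Gclc*, at 0.01, was -0.02 with library size alone, -0.03 with spike-in scaling and -0.00 to 0.03 when 1 sample was left out. Changed genes numbered 4291, against 2524 with spike-in scaling (1339 higher and 1185 lower), the one alternative that moved the count by more than 1.5 times. Spike-in scaling left 3 calls in the methionine cycle and transsulfuration, 2 in cysteine and sulfide breakdown, 2 in glutathione reduction, 2 in thioredoxins, 0 in superoxide dismutases and catalase, 4 in NRF2 regulators, 7 in NRF2 targets, 5 in haem and iron, 3 in NADPH supply, 5 in selenoproteins, 2 in selenocysteine synthesis and 2 in ferroptosis genes. DESeq2 left 3 in glutathione breakdown, 3 in glutathione reduction, 1 in superoxide dismutases, 5 in NADPH supply and 2 in selenocysteine synthesis. Superoxide dismutases and catalase held 1 with library size alone, DESeq2's size factors, either other filter and the joint omission of WT replicate 3 with *Abat* cKO replicate 1, added after the data were seen, which also gave 5 glutathione S-transferases; no filter left 2 in selenocysteine synthesis. Leaving out 1 sample gave 2 to 4 calls in glutathione breakdown, 2 to 6 in glutathione reduction, 1 to 2 in superoxide dismutases, 5 to 8 in NADPH supply, 7 to 9 in selenoproteins and 2 to 4 in selenocysteine synthesis. The joint omission of both samples gave 4, 7, 1, 9, 11 and 5 calls in these lists, in the same order. The cause was not tested. WT *Gpx4* over *Txnrd1* was 0.800 per length and 0.220 without it.

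Same-numbered samples did not deviate together (r of -0.287, 0.116 and -0.284). The highest r between a WT and an *Abat* cKO sample was 0.376, for WT replicate 3 with *Abat* cKO replicate 1. Deviations of 3 samples from their group mean are tied to each other, so these r values cannot decide whether equal numbers mark matched samples. The main test did not pair them. The replicate block gave 3444 changed genes and 5 changed members, with 3 calls in glutathione breakdown, 1 in superoxide dismutases, 5 in NADPH supply and 2 in selenocysteine synthesis. Of 68 other named genes that passed, 31 passed in every alternative and 37 were lost in at least 1, 34 of them with spike-in scaling, and 0 changed direction. Counts of *Nqo1* and *Cbs* limit their precision.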

Other observations

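Among 7596 other genes of moderate or high level, those whose log2 CPM followed *Cth* most closely over the 6 samples were *Hist1h4m*, *Pde4dip* and *Glb1* (log2 fold changes of 6.57, 0.98 and 0.65). *Hist1h4m* is a replication-dependent histone gene with near-identical copies, so its level is uncertain, *Pde4dip* encodes a centrosome and Golgi scaffold, and *Glb1* the lysosomal beta-galactosidase. By the same measure *Ptk2* was nearest to *Cbs*, *Cnpy2* to *Gpx4*, *Efhd2* to *Txnrd1* and *Cd53* to *Hmox1*, with log2 fold changes of 0.87, 0.71, 0.39 and 0.23. Because the 6 samples form 2 groups, likeness over them mostly restates the difference between genotypes, and no coefficient is given.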
